A study of Mus musculus with 4 samples.

Results

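The genes described here code for collagens, laminin chains and a set of other matrix proteins, and they were compared between amacrine and bipolar neurons of the young mouse retina. A gene was taken when a probe set of the deposited table was annotated to it alone and its symbol had the form of a collagen chain (Col, number, a, number) or of a laminin chain (Lama, Lamb or Lamc with a digit), or was Postn, Otor, Tnc, Tnr, Fn1, Nid1, Nid2, Sparc, Sparcl1, Thbs1, Thbs2, Hapln1 or Bcan. The rule took 65 of the 18194 genes on the array, through 127 of 45101 probe sets: 42 collagen genes, 10 laminin chains and 13 others. The brightest probe set stood for each gene. A gene counted as expressed when that probe set was brighter than the array median on 2 or more of the 4 arrays. This held for 33 of the 65 (24 collagens, 4 laminin chains and 5 others), or 50.8%, against 63.7% of all genes.

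All 4 samples were neurons sorted at postnatal day 6 from papain-dissociated retinas of pups of mixed C57Bl6 x CD1 background, bred from males with the MP transgene and females without it. The transgene marks cells with the fluorescent protein CFP, and every sorted cell was CFP-positive. MP amacrine cells were those that also bound VC1.1, an antibody to amacrine cells, whereas MP bipolar cells were CFP-positive cells without VC1.1, sorted after depletion of VC1.1-bound cells on a magnetic column. A group consisted of 2 replicates taken from separate litters. About 1000 cells went into a replicate, whose RNA was amplified in 2 rounds and hybridised to 1 Affymetrix array. Each sample was therefore a pool of the cells that passed the gate, and the promoter behind the transgene is not stated in the labels. The comparison addressed here is which matrix genes the CFP-positive amacrine and bipolar cells carried at different levels.

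Collagens are trimers of alpha chains with long triple-helical stretches. Some form fibrils or attach to their surface, some form the sheet of the basement membrane together with laminins and nidogens, and a few span the plasma membrane of neurons and other cells. Laminins are heterotrimers of an alpha, a beta and a gamma chain, and in the retina they line the inner limiting membrane and the vessels and occur in the matrix around photoreceptors and synapses. Tenascins, fibronectin, periostin, SPARC and thrombospondins are glycoproteins that bind these scaffolds, integrins or one another. In nervous tissue, hyaluronan with its link proteins (Hapln1), brevican (Bcan) and tenascin-R (Tnr) makes up the perineuronal matrix.

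The median intensity lay between 44.5 and 47.2 on the 4 arrays, between 27.8% and 28.7% of probe sets lay below 16, and the table holds no detection calls, so a low value was not taken for absence. The number of arrays limits the precision of every value. The control probe sets set MP amacrine replicate 2 apart: the log2 ratio of the 3' to the 5' actin probe set was 3.82 there and 1.89 to 2.13 on the other arrays. Of the tested markers, 10 of 12 amacrine genes were called higher in MP amacrine cells (adjusted p under 0.05, limma), as were 6.54% of all tested genes. The summed intensities of the list were 10227 and 10959 in MP amacrine cells against 1467 and 1523. Of the tested bipolar markers, 6 of 9 were called higher in MP bipolar cells, as were 6.92% of all tested genes. The summed intensities of that list were 11549 and 11646 in MP bipolar cells against 4052 and 3455. Pcp2 (log2 difference -1.21) was not called. Isl1 (0.64) and Prkca (0.25) were higher in MP amacrine cells and not called either. Markers of other cells known for making matrix were checked. Rpe65, Best1, Lrat, Mlana and Pmel of the pigment epithelium, Acta2, Anpep, Cspg4, Kcnj8, Abcc9 and Myl9 of mural cells, and Pecam1, Tie1 and Vwf of endothelium all lay below 16 on every array. Other markers of these lists were measured at moderate levels. Of the 3 tested pigment epithelium markers, Dct was called higher in MP amacrine cells, at 65.5 and 56.5 against 26.9 and 19.9 (0.97, adjusted p = 0.0194, limma), while Tyr lay at 56.4 to 74.1 and Rdh5 at 47.0 to 54.7. The endothelial Egfl7 lay at 66.3 to 104 and Kdr at 57.1 to 116. Of the 4 tested mural cell and fibroblast markers Pdgfrb alone was called, higher in MP amacrine cells (1.89, adjusted p = 8.43e-04, limma), and the summed intensity of that list was 362 to 394 on all arrays. The summed intensity of the rod markers was 9495 to 14563, and that of the microglial markers was 4330 on MP amacrine replicate 2 and 487 to 1712 on the others. In these pools, fewer cells of a type and less RNA per cell cannot be told apart.

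Among the 33 expressed matrix genes, 11 were called, that is, had an adjusted p under 0.05 in limma with 2 arrays per group (Benjamini-Hochberg over 11583 genes). This was 33.3% of the expressed members, against 13.5% of all tested genes. The members were chosen with earlier results of these data known, so comparisons of this set with all genes are not independent of those results. The filter bears on the share of the members as well. Of the 11, 7 lay above the median on only 2 arrays, those of the group where they were higher. These 7 passed the filter only through that group. With no filter 5 of all 65 were called, as were 785 of all 18194 genes. Of the 11 members called with the filter, 7 were higher in MP amacrine cells. All 7 were collagens (Col25a1, Col27a1, Col9a1, Col26a1, Col4a5, Col6a1 and Col13a1), as were 24 of the 33 expressed members. Of all tested genes 6.54% were called in that direction. Higher in MP bipolar cells were 4, the matrix proteins Postn, Otor and Fn1 and the collagen Col19a1, where the share over all tested genes was 6.92%. No laminin chain passed. The arrays of the groups did not overlap for 20 of the 33, or 60.6%, against 53.3% of all tested genes. The median size of the difference, without its sign, was 0.65 on the log2(intensity + 16) scale for the expressed matrix genes and 0.26 for all tested genes, and the signed medians were 0.10 and -0.03. The split by direction rested on the settings: it was 1 higher in MP amacrine and 4 in MP bipolar cells with no filter, and 2 and 4 at an adjusted p under 0.01. Leaving out MP amacrine replicate 2 left 9 calls (5 and 4). There were 6 calls (2 and 4) when MP bipolar replicate 1 was left out, and 7 (3 and 4) when the other bipolar array was. Postn, Otor, Col19a1, Fn1 and Col25a1 were called whichever array was left out. Fold changes below are MP amacrine minus MP bipolar in log2(intensity + 16), so that differences of dim genes come out too small.

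**Figure D1:**
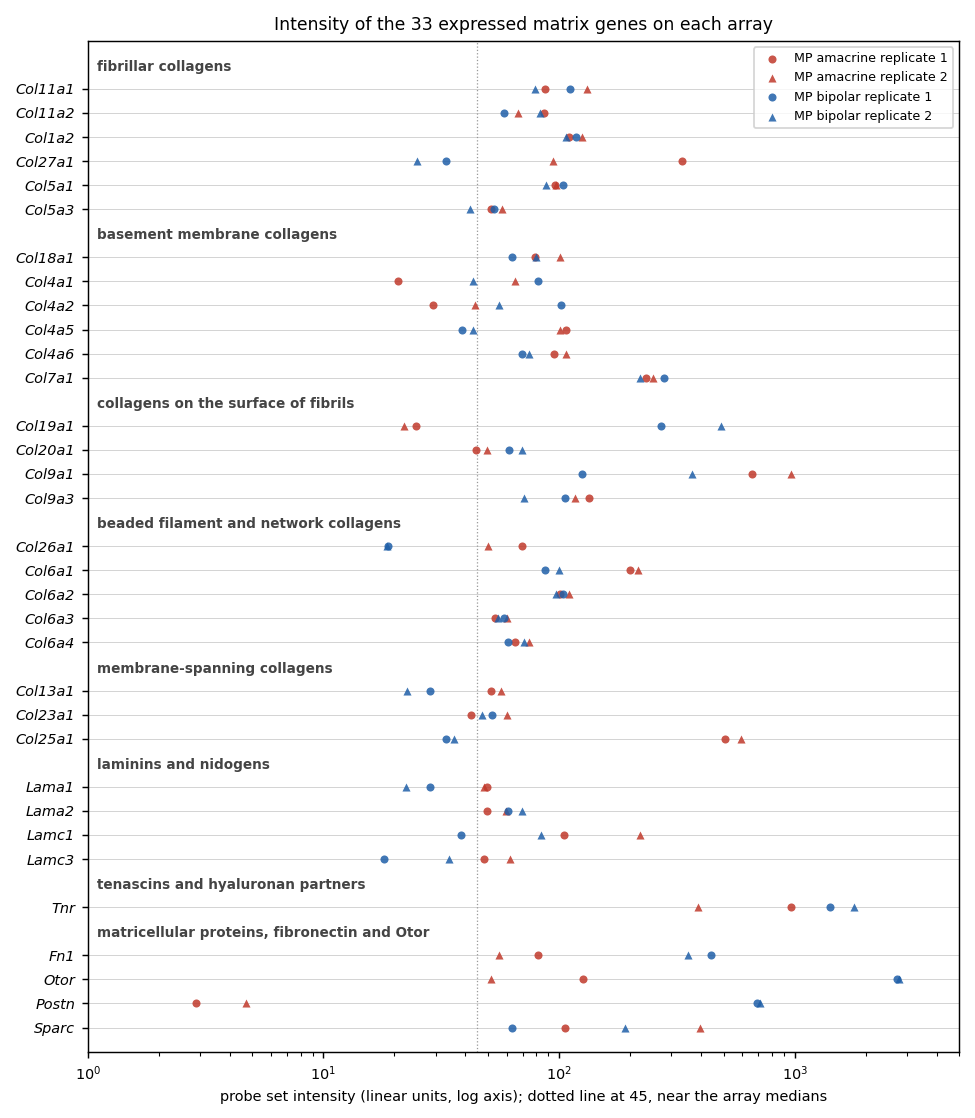
Probe set intensity (log axis) of the 33 expressed matrix genes on each of the 4 arrays, grouped by the kind of protein; red points are MP amacrine cells and blue points MP bipolar cells, with a circle for replicate 1 and a triangle for replicate 2. Postn, Otor, Col19a1 and Fn1 lie far to the right in MP bipolar cells and Col25a1 in MP amacrine cells; for most fibrillar chains the 4 points lie close together.

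The 2 largest differences were those of Postn and Otor, which are not collagens. Of the 7 matricellular proteins, fibronectin and Otor on the array, 4 were expressed, and 3 of these were called higher in MP bipolar cells. Over all tested genes 6.92% were called in that direction. Postn passed the filter only through the MP bipolar arrays. Postn codes for periostin, a secreted protein that binds collagen and integrins. Its intensity was 2.88 and 4.68 in the MP amacrine replicates and 691 and 709 in the MP bipolar replicates. The groups lay far apart, and each pair of replicates lay close together. The difference was -5.18 on the log2(intensity + 16) scale (SE 0.20, adjusted p = 1.29e-05, limma). Both amacrine values lie at the bottom of the array's range, so the size rests on the offset, and with an offset of 1 it was -7.22.

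Otor codes for otoraplin, a small secreted protein with an SH3-like fold, known from the cochlea and related to the cartilage protein MIA. Its intensity was 126 and 51.7 in MP amacrine cells and 2704 and 2782 in MP bipolar cells. The bipolar replicates nearly coincided, and the lower amacrine replicate was the one with the steep control probe sets. Otor thus differed by -4.81 in log2 fold change (SE 0.34, adjusted p = 7.98e-05, limma), and -4.28 without that array. Mia, the related gene, lay between 109 and 124 on all arrays and its log2 fold change was -0.15 (adjusted p = 0.739, limma).

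Fn1 codes for fibronectin, the soluble and fibrillar glycoprotein through which integrins hold many cells to matrix. Its intensity was 81.4 and 55.4 in MP amacrine cells and 441 and 352 in MP bipolar cells, with no overlap. Between the groups the log2 fold change was -2.30 (SE 0.25, adjusted p = 6.53e-04, limma). A second probe set of Fn1 measured 20.2 and 15.6 against 314 and 176, which gave -2.90 (adjusted p = 0.00157 when each probe set was tested singly, limma). Fn1 is also made by vessels. Of the endothelial markers, Esam alone was called, at 29.4 and 14.0 in MP amacrine cells against 574 and 605 in MP bipolar cells, and it carried the summed intensity of the list, 391 and 510 against 971 and 912. Without Esam the sums were 361 and 496 against 398 and 306, and 3 of the other 4 tested endothelial markers had positive log2 differences. The part of vessel cells in the Fn1 difference was not tested.

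Sparc, a calcium- and collagen-binding protein of glia and vessels, did not pass. It measured 106 and 397 in MP amacrine cells and 63.0 and 191 in MP bipolar cells. Within either group replicate 2 was the higher, and the groups overlapped. Its fitted log2 fold change was 0.81 (SE 0.60, adjusted p = 0.483, limma), or -0.07 without MP amacrine replicate 2.

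The windows of 250 bases before the annotated starts of Postn, Otor, Col25a1 and Col27a1 are shown, because these were the called members with the largest differences in either direction. They are RefSeq sequences of build GRCm38.p6 on the plus strand, with the table holding 2 starts for Postn. Capitals mark the letters TATAAA, the core of a TATA box, in Otor and Postn, and the letters ATGCTAAT in Col25a1.
Otor, chr2:143078143-143078392: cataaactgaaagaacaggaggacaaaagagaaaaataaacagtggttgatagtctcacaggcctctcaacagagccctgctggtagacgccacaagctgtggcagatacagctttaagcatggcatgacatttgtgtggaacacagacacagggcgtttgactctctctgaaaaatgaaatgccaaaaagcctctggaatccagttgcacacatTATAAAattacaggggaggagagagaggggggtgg
Postn, chr3:54359017-54359266: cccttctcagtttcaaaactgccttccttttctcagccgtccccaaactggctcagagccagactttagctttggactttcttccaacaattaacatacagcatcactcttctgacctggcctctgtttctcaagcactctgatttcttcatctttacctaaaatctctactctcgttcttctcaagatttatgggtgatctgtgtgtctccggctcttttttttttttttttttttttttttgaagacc
Postn, chr3:54360857-54361106: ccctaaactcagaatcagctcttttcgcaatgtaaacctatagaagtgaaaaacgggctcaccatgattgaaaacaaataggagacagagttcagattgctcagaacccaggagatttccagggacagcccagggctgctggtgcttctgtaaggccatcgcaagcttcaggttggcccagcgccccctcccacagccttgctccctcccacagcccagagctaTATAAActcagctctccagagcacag
Col25a1, chr3:130180595-130180844: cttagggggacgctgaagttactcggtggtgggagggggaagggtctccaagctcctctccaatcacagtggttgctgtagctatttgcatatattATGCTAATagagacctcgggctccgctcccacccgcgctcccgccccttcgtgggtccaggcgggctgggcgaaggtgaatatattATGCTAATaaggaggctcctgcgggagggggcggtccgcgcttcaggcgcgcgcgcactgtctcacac
Col27a1, chr4:63215162-63215411: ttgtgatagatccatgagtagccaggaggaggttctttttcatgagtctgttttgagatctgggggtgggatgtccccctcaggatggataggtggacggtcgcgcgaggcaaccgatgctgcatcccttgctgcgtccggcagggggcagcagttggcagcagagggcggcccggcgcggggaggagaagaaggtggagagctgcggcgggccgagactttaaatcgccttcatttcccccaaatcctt
TATAAA, searched on both strands, begins 35 bases before the start of Otor and 26 bases before the second start of Postn. It also lies in the window of Col13a1, which was called higher in MP amacrine cells, so that 3 of the 9 called members with a window hold it. A gene was counted when any of its windows held the letters, and Postn and Col9a1 have 2 windows each. Over all 32851 windows of this length, counted singly, the share is 12.4%, so the units of these shares are unlike. The Col25a1 window holds ATGCTAAT at 154 and again at 68 bases before the start, each time inside the same run of 16 bases, atatattatgctaata. ATGCTAAT was looked up after that window had been read. It lies in 0.828% of all windows on either strand, and 4 windows hold it more than once. A repeat of 16 or more bases without overlap lies in 1.98% of windows. TAATCC, a core bound by the homeodomain proteins Otx2 and Crx, lies in 6.25% of windows and in none of those of the 9 called members that the table holds. The E-box CANNTG lies in 66.2% of windows. These are matches of letters and do not show binding.

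**Figure D2:**
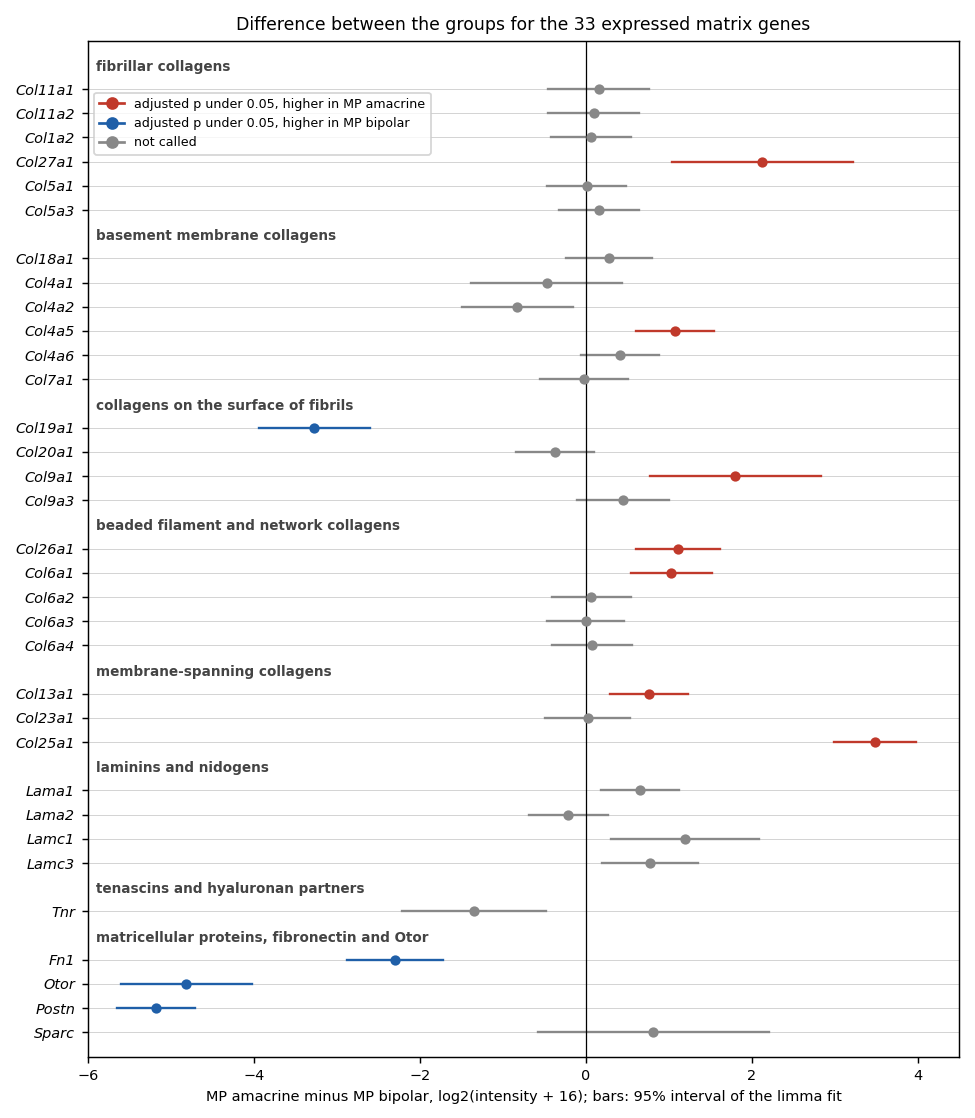
Difference between MP amacrine and MP bipolar cells (log2(intensity + 16), points) with the 95% interval of the limma fit (bars) for the 33 expressed matrix genes; red and blue mark genes called higher in MP amacrine and in MP bipolar cells, grey those not called. The 4 blue genes reach from -2.30 to -5.18, and the 7 red genes, all collagens, from 0.76 to 3.48. Of the 33 genes shown 24 are collagens.

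Of the tenascins and hyaluronan partners, Tnr alone was expressed. Tnr codes for tenascin-R, which binds lecticans and the adhesion molecule contactin and in the brain comes from oligodendrocytes and some neurons. Its intensity was 960 and 390 in MP amacrine cells, the lower on the array with the steep control probe sets. In MP bipolar cells Tnr measured 1419 and 1777, without overlap. Its log2 fold change was -1.35 (95% interval -2.21 to -0.48, adjusted p = 0.0522, limma) and did not pass. It was called without MP amacrine replicate 1, at -1.98 (adjusted p = 0.00155, limma), and was -0.72 without MP amacrine replicate 2 (adjusted p = 0.0718, limma). Tnc, the related tenascin-C, Hapln1 and Bcan fell below the filter, with Tnc at 18.3 and 51.6 in MP amacrine cells and 16.4 and 22.5 in MP bipolar cells.

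Of the 9 collagens that sit on the surface of fibrils 4 were expressed. In each direction 1 was called, where 13.5% of all tested genes were called in either. These chains carry interrupted helices and do not form fibrils of their own. Col19a1 measured 24.6 and 22.1 in MP amacrine cells and 270 and 488 in MP bipolar cells. The amacrine arrays agreed closely, and both bipolar arrays stood far above them. It passed the filter only through the bipolar arrays. The Col19a1 difference was -3.27 in log2 (SE 0.29, adjusted p = 2.39e-04, limma), and a second probe set, at 25.3 and 29.6 against 152 and 172, gave -2.04 (adjusted p = 0.00149 when tested singly, limma). A further probe set of Col19a1 lay between 8.41 and 20.7 on all arrays.

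Col9a1, a chain of type IX collagen of cartilage, vitreous and ciliary epithelium, went the other way. Its intensity was 656 and 960 in MP amacrine cells and 125 and 368 in MP bipolar cells. The groups did not overlap, but replicate 2 was the higher within either group. The log2 fold change was 1.80 (SE 0.44, adjusted p = 0.0329, limma), and it was 1.08 without MP bipolar replicate 1 (adjusted p = 0.0946, limma) and 1.53 without MP amacrine replicate 2 (adjusted p = 0.141, limma). A second, dim probe set of Col9a1 lay between 30.3 and 46.2 on all arrays and gave 0.32. With the mean of all its probe sets Col9a1 was not called. The partner chains of Col9a1 gave no call. Col9a3 measured 134 and 117 in MP amacrine cells and 106 and 71.3 in MP bipolar cells (0.45, adjusted p = 0.305, limma). Col9a2 lay between 2.40 and 6.23 and was below the filter. Col9a1 and Col19a1 are neighbours in the RefSeq gene order of chromosome 1, and they differed in opposite directions. Col20a1, the fourth expressed gene of this class, had a log2 fold change of -0.37 (adjusted p = 0.316, limma).

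The membrane-spanning collagens are made by neurons and other cells, and some shed an ectodomain. Col25a1, whose product was found in amyloid plaques and is needed by motor axons to reach their muscles, showed the largest difference among the genes higher in MP amacrine cells. It measured 508 and 590 there and 33.1 and 35.7 in MP bipolar cells. Both replicate pairs lay close together. For Col25a1 the log2 fold change was 3.48 (SE 0.21, adjusted p = 4.24e-05, limma). A second probe set of Col25a1 was dim, between 28.8 and 36.6 on all arrays, and did not show the difference. Col13a1, known from the neuromuscular junction, measured 51.6 and 56.7 against 28.3 and 22.7. Its arrays did not overlap, and its log2 fold change was 0.76 (SE 0.20, adjusted p = 0.0462, limma). That call was the least firm: it was lost when any array was left out, with adjusted p from 0.0845 to 0.254. Col23a1 had a log2 fold change of 0.02 and Col17a1 was below the filter.

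Of 11 fibrillar chains, 6 were expressed and 1 was called, where 13.5% of all tested genes were called. Col27a1, a chain of cartilage and developing epithelia, measured 332 and 93.9 in MP amacrine cells and 33.1 and 24.9 in MP bipolar cells. The amacrine replicates differed more from each other than the bipolar ones did, yet both lay above the bipolar arrays. The Col27a1 difference was 2.13 in log2 (SE 0.47, adjusted p = 0.0208, limma), with 1.29 when the brighter amacrine array was left out and 2.96 when the dimmer was. It was 1.99 and no longer called without MP bipolar replicate 2 (adjusted p = 0.0800, limma). A second probe set, at 253 and 78.3 against 25.7 and 24.2, gave 1.96 (adjusted p = 0.0414 when tested singly, limma).

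The other expressed fibrillar chains lay close to 0. Col1a2, a chain of type I collagen, measured 110 and 125 in MP amacrine cells and 118 and 107 in MP bipolar cells. The log2 fold change was 0.06, and its 95% interval ran from -0.42 to 0.54. Col5a1, at 95.9 and 96.7 against 104 and 87.8, gave 0.01, and Col5a3, at 51.5 and 57.3 against 53.0 and 41.7, gave 0.16. Col11a1, at 86.8 and 131 against 112 and 79.4, gave 0.16, and Col11a2, at 86.2 and 66.7 against 58.6 and 83.2, gave 0.10. For all 5 the groups overlapped. Col1a1, Col2a1, Col3a1, Col5a2 and Col24a1 were below the filter.

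Of 9 basement membrane collagens, 6 were expressed, and Col4a5 was called, where the share over all tested genes was 13.5%. Type IV collagen chains are coded in head-to-head pairs that share a promoter region. Col4a5 measured 107 and 101 in MP amacrine cells and 38.8 and 43.1 in MP bipolar cells. Replicates lay close together within either group. The log2 fold change was 1.07 (SE 0.20, adjusted p = 0.00972, limma), and the call was lost without MP bipolar replicate 1 (adjusted p = 0.0777) or replicate 2 (adjusted p = 0.0571). A second, very dim probe set of Col4a5 lay between 3.84 and 5.9 on all arrays and did not show the difference (0.09). Col4a6, the pair of Col4a5, measured 95.2 and 107 against 69.5 and 74.8, also without overlap. The log2 fold change of Col4a6, 0.41, did not pass (adjusted p = 0.273, limma).

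The main chains of vessel basement membrane, Col4a1 and Col4a2, had negative fold changes that did not pass. Col4a1 measured 20.8 and 65.2 in MP amacrine cells and 81.5 and 42.9 in MP bipolar cells, and the groups overlapped (-0.47, adjusted p = 0.543, limma). Col4a2 measured 29.1 and 44.1 against 102 and 55.8, without overlap (-0.82, adjusted p = 0.114, limma). Col18a1, which yields endostatin, measured 79.4 and 101 against 63.2 and 80.2 and gave 0.28. Col7a1, of anchoring fibrils, measured 235 and 251 against 279 and 220 and gave -0.02. Both had overlapping groups. Col4a3, Col4a4 and Col15a1 were below the filter.

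Of the 9 beaded filament and network collagens 5 were expressed, and 2 were called, against 13.5% of all tested genes. Col6a1, the first chain of the beaded filaments of type VI collagen, measured 199 and 216 in MP amacrine cells and 86.8 and 100.3 in MP bipolar cells. The groups were well separated. The log2 fold change was 1.03 (SE 0.21, adjusted p = 0.0151, limma), and it was not called without MP bipolar replicate 1 (adjusted p = 0.135) or replicate 2 (adjusted p = 0.0803). The other type VI chains were not called. Col6a2, its neighbour on chromosome 10, measured 101 and 111 against 104 and 96.8, a log2 fold change of 0.07, and another of its probe sets gave -0.48. Col6a3 gave -0.00 and Col6a4 gave 0.07. Col26a1 measured 69.9 and 49.9 in MP amacrine cells and 18.8 and 18.7 in MP bipolar cells, and its log2 fold change was 1.11 (SE 0.22, adjusted p = 0.0122, limma). It lost the call without MP amacrine replicate 1 (adjusted p = 0.0572) and without either bipolar replicate (adjusted p = 0.0503 and 0.0576), and a second, very dim probe set showed no such difference.

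Of the 10 laminin chains 4 were expressed and 0 passed in limma, although 3 had an unadjusted p under 0.05, as did 24.7% of all tested genes. Lamc1, the gamma chain of most laminins, measured 105 and 220 in MP amacrine cells and 38.3 and 84.3 in MP bipolar cells. The groups did not overlap, and replicate 2 was the higher within either group. Its log2 fold change was 1.20 (95% interval 0.30 to 2.09, adjusted p = 0.0887, limma), and it was called at 1.68 without MP amacrine replicate 1 (adjusted p = 0.0248) and at 1.64 without MP bipolar replicate 2 (adjusted p = 0.0477). Lamc3, a gamma chain that the retina is known to carry, measured 47.9 and 61.9 against 18.1 and 34.0 (0.77, adjusted p = 0.0913, limma). Lama1, an alpha chain of the inner limiting membrane, measured 49.5 and 48.1 against 28.3 and 22.5 (0.65, adjusted p = 0.0795, limma). Lama2 lay the other way at 49.3 and 59.3 against 60.7 and 69.6 (-0.21, adjusted p = 0.621, limma). The groups did not overlap for any of the 4, where this held for 53.3% of all tested genes. No beta chain passed the filter: Lamb1, Lamb2 and Lamb3 lay between 6.40 and 27.1. The nidogens Nid1 and Nid2, which link laminin to type IV collagen, reached at most 13.9 and were below it too.

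The remaining 32 members were too dim to test. Besides those named above they were Col8a1, Col8a2, Col10a1, Col6a5, Col12a1, Col14a1, Col16a1, Col22a1, Lama3, Lama4, Lama5, Thbs1, Thbs2 and Sparcl1. Their intensities lay between 1 and 108, and their log2 differences, untested, between -0.64 and 1.65. Sparcl1, a relative of Sparc made by astrocytes and Müller glia, was the only one with both arrays of a group over 3 times both of the other. It measured 108 and 14.7 in MP amacrine cells and 4.69 and 2.58 in MP bipolar cells. Thbs2 lay at 36.9 and 66.0 against 39.9 and 38.1.

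Several members differed between the replicates of a group, and they are set beside the glial and ganglion cell markers. Of the 33 expressed members 12 were higher in replicate 2 of both groups, among them Sparc, Lamc1 and Col9a1. In replicate 1 of both 5 were higher, and 16 were mixed. The shares over all tested genes were not counted, so these counts do not set the members apart. The 9 tested Müller and astrocyte markers were mixed: 3 were higher in replicate 2 of both groups, 2 in replicate 1 of both and 4 in neither way. Higher in replicate 2 was Rlbp1, a marker of Müller glia, at 80.9 and 156 in MP amacrine cells and 20.8 and 58.8 in MP bipolar cells. Slc1a3, the glial glutamate transporter, measured 71.3 and 196 against 25.7 and 29.3. Apoe, at 190 and 120 against 94.5 and 9.81, and Dkk3, at 228 and 192 against 58.6 and 57.8, were higher in replicate 1. The list of Müller and astrocyte markers as a whole had 3 of 9 tested genes called higher in MP amacrine cells and 1 called higher in MP bipolar cells, and its summed intensity was 5151 and 4881 against 2707 and 3451.

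Col27a1 and Sparcl1 were highest in MP amacrine replicate 1. The other amacrine array was the one with the steep control probe sets. Of the 6 tested ganglion cell markers 4 were also highest on replicate 1 of MP amacrine cells, among them the neurofilament genes Nefl and Nefm. So were 7 of 9 rod markers, 6 of 12 amacrine markers and 4 of 9 Müller and astrocyte markers. For other lists it was 2 of 9 bipolar, 1 of 4 mural cell and 1 of 3 pigment epithelium markers. It was 0 of 6 microglial and 0 of 5 endothelial markers. Of the 33 expressed matrix genes 6 were highest there, and the share over all tested genes was not counted. Nefl lay at 1102 on that array against 87.5 in the other amacrine replicate, and Nefm at 1631 against 136. In MP bipolar cells Nefl lay at 68.6 and 45.7 and Nefm at 47.7 and 35.0. Thy1, in contrast, was lowest on that array, at 806 and 1455 in MP amacrine cells and 2462 and 3415 in MP bipolar cells, and was called higher in MP bipolar cells (-1.41, adjusted p = 0.0131, limma). Nefh measured 73.2 and 35.0 against 77.7 and 79.1. The summed intensity of the ganglion cell list was 3906 and 1913 in MP amacrine cells and 2830 and 3709 in MP bipolar cells, and without Thy1 it was 3100 and 458 against 368 and 295. The part of glial or ganglion cells in these values was not tested, nor was that of the difference in control probe sets between the arrays. The marker genes set beside them were chosen after the values were seen.

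**Figure D3:**
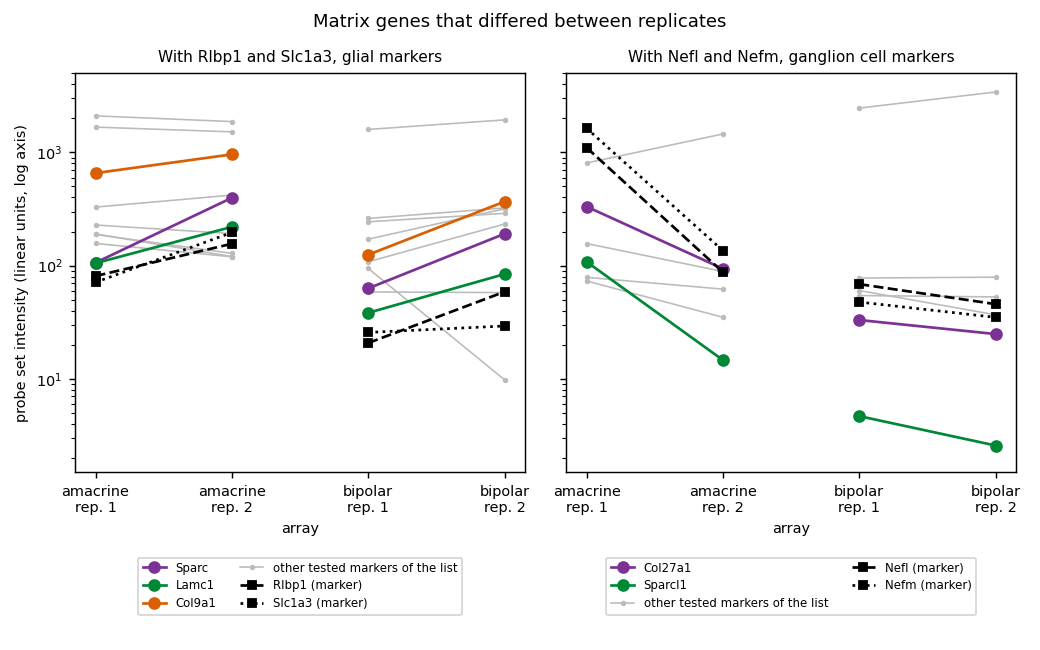
Probe set intensity (log axis) on each array for matrix genes that differed between replicates (coloured circles) and for marker genes (black squares), with the other tested markers of the same list in grey; lines join the 2 arrays of a group. At left, Sparc, Lamc1 and Col9a1 and the glial marker Rlbp1 are higher in replicate 2 of both groups; at right, Col27a1 and Sparcl1 are highest in MP amacrine replicate 1, as are Nefl and Nefm. The grey markers do not all follow: Dkk3 and Apoe are higher in replicate 1, and Thy1 is lowest in MP amacrine replicate 1.

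The genes that receive, modify or cut the matrix were counted from 5 lists, which held 120 genes on the array and 69 expressed genes. Of these, 15 were called, 9 higher in MP amacrine and 6 higher in MP bipolar cells. This was 21.7%, where 13.5% of all tested genes were called, and single lists lay above and below that share. The lists were chosen with earlier results of these data known, so this comparison is not independent of those results. The filter bears on this share too. Colgalt2, Adamts4, Fbln2, Thbs3, Fras1, Hmcn1 and Matn2 lay above the median on only 2 arrays, those of the group where they were higher. With no filter 12 of all 120 list genes were called, as were 785 of all 18194 genes. Among 12 expressed matrix receptors 2 were called, both higher in MP amacrine cells. Itgav, the alpha-V integrin subunit that binds fibronectin, vitronectin and periostin, measured 1589 and 1734 in MP amacrine cells and 227 and 373 in MP bipolar cells. The groups lay well apart (log2 fold change 2.45, SE 0.26, adjusted p = 5.83e-04, limma). A second probe set of Itgav, at 47.2 and 35.7 against 43.1 and 45.7, gave -0.08. Ddr1, a receptor tyrosine kinase activated by collagen, measured 4209 and 4081 against 2512 and 2437 (0.74, adjusted p = 0.00247, limma). The brightest probe sets of Ddr1 may match other transcripts, and a probe set of a more specific kind gave -0.07. Itgb1, the common partner of collagen and laminin receptors, had a log2 fold change of -0.07 (adjusted p = 0.904, limma), and Dag1, which codes for dystroglycan, 0.52 (adjusted p = 0.270, limma).

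Among 17 expressed genes of collagen modification and assembly 1 was called. Colgalt2, which adds galactose to the hydroxylysines of collagen, measured 85.2 and 62.1 in MP amacrine cells and 1.22 and 4.29 in MP bipolar cells. Its log2 fold change was 2.25 (adjusted p = 4.15e-04, limma), while its relative Colgalt1 gave -0.03. The prolyl hydroxylase P4hb (-0.19), the collagen chaperone Serpinh1 (0.12) and the lysyl hydroxylases Plod1 (-0.04), Plod2 (-0.12) and Plod3 (0.20) did not pass.

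Among 13 expressed proteases and inhibitors 3 were called. Mmp2, gelatinase A, which degrades type IV collagen and gelatin, measured 79.7 and 81.4 in MP amacrine cells and 1458 and 1871 in MP bipolar cells. No array of a group came near the other group. The log2 fold change was -4.11 (SE 0.23, adjusted p = 2.71e-05, limma), and a second probe set gave -2.68. Mmp14 and Timp2, which together activate the Mmp2 proenzyme, gave -0.07 and -0.08 and did not pass. Adamts4, an aggrecanase, measured 79.1 and 57.4 in MP amacrine cells and 11.6 and 9.65 in MP bipolar cells (1.65, adjusted p = 0.00181, limma). A second, very dim probe set of Adamts4 lay between 4.24 and 7.48 on all arrays and did not show the difference (0.05). Reck, a membrane-anchored inhibitor of metalloproteinases, measured 480 and 1119 against 278 and 230 (1.48, adjusted p = 0.0365, limma). It lost the call without either bipolar array (adjusted p = 0.0709 and 0.146) and without MP amacrine replicate 2, where it was 0.88 (adjusted p = 0.0835).

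Among 7 expressed partners of the hyaluronan and tenascin matrix 3 were called. Cntn1, contactin, a neuronal ligand of Tnr, measured 309 and 279 in MP amacrine cells and 2784 and 3121 in MP bipolar cells (-3.26, adjusted p = 2.91e-05, limma). Its second probe set gave -2.56, and a further, dim one gave 0.05. Ptprz1, a receptor phosphatase that binds contactin and tenascins, measured 580 and 712 against 1773 and 1859 (-1.48, adjusted p = 0.00138, limma). Ncan, neurocan, the hyaluronan-binding lectican to which Tnr attaches, lay the other way at 1465 and 1310 against 511 and 373 (1.63, adjusted p = 0.00210, limma). Its second probe set also gave 1.63, and a further one gave 0.59 and did not pass (adjusted p = 0.168 when tested singly, limma).

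Among 20 expressed further matrix glycoproteins 6 were called, 3 in each direction. Frem1, a protein of the Fraser complex beneath epithelia, measured 1563 and 1536 in MP amacrine cells and 29.9 and 48.7 in MP bipolar cells. This difference, 4.84 (SE 0.25, adjusted p = 2.04e-05, limma), was wider than that of any collagen. Hmcn1, hemicentin, measured 9.08 and 1.68 against 222 and 484 (-4.03, adjusted p = 2.41e-04, limma). Matn2, a matrilin, measured 10.6 and 4.61 against 95.6 and 113 (-2.36, adjusted p = 3.26e-04, limma), and Thbs3, a thrombospondin, 167 and 105 against 23.1 and 25.9 (1.88, adjusted p = 0.00185, limma). A second, very dim probe set of Matn2 gave -0.21.

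**Figure D4:**
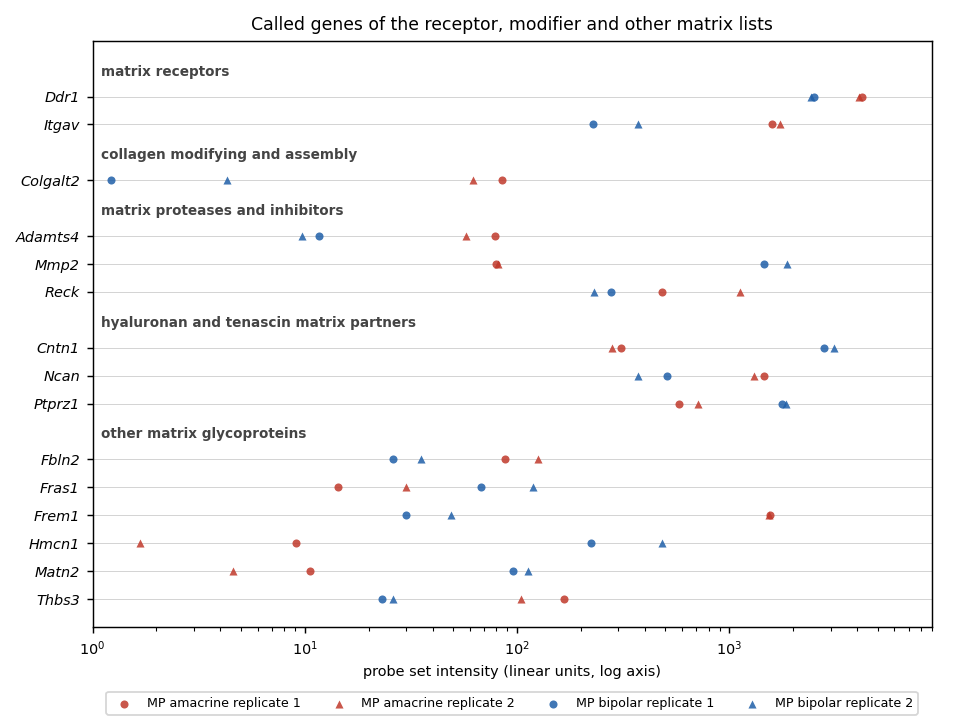
Probe set intensity (log axis) on each array for the 15 called genes of the 5 lists of matrix receptors, modifiers, proteases and other matrix proteins, with red for MP amacrine and blue for MP bipolar cells, circles for replicate 1 and triangles for replicate 2. Frem1 and Colgalt2 lie far higher in MP amacrine cells, and Mmp2, Cntn1, Hmcn1 and Matn2 far higher in MP bipolar cells.

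Chains whose genes lie side by side often code for partners of 1 trimer, so the neighbouring members were set against each other. The RefSeq gene order gives 7 neighbouring pairs among the 65 members, of which 4 had both genes expressed. In Col4a6 and Col4a5 the differences were 0.41 and 1.07, in Col4a1 and Col4a2 they were -0.47 and -0.82, in Col6a2 and Col6a1 they were 0.07 and 1.03, and in Col9a1 and Col19a1 they were 1.80 and -3.27. The last pair was the only one with both genes called.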

How the data were processed

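RNA of 4 samples, 2 of MP amacrine and 2 of MP bipolar cells, was measured on Affymetrix arrays. Samples were grouped by their titles, and the labels state that replicates came from different litters. The deposited table, per its values, holds 1 linear intensity per probe set and array for 45101 probe sets, and the authors' software for summary, background and scaling steps was not given in the sources used here. Intensities were used as deposited, as log2(intensity + 16). The 64 control probe sets were left out, and genes were taken from the platform annotation where it gives exactly 1 gene (34945 probe sets). The brightest probe set, by its mean log2 value, stood for a gene. Genes above the array median on at least 2 arrays (11583 of 18194) were compared with limma 3.58.1 under R 4.3.3 by lmFit and by eBayes with its trend option. Tests were two-sided, with 2 residual degrees of freedom and Benjamini-Hochberg adjustment over all tested genes.

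The members, the 5 lists, the markers and the rule for naming genes were chosen with earlier results of these data known. By that rule called members and all tested laminins, fibrillar and basement membrane collagens and single proteins were named, with up to 4 called genes of each list; other genes were named as background values. Protein sequences planned for display were not used here, and promoters from a RefSeq table took their place (47 of 65 members matched). The fit was tested on simulated data. Alternatives changed the scaling, filter, offset, probe set, variance moderation, threshold, block and replicates. Testing each probe set singly was added after seeing the data. The alternative planned for log2 tables did not apply to linear values and was not run. With 1 array left in a group, its spread was taken from the other group.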

Additional observations from a re-analysis of the deposited data

How the results depend on the processing

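Postn, Otor, Col19a1, Fn1 and Col25a1 were called under every alternative that tested them. The number of matrix genes called, 11 with the settings of the report, was 5 with no filter on dim genes, 6 with the probe set of the 2nd highest mean (19 genes then tested), and 6 at an adjusted p under 0.01. It ranged from 6 to 11 when a replicate was left out. The other alternatives gave 8 to 16. The number of receptor and modifier genes called, 15 in the report, was 9 with a filter at the 75th percentile, where 28 genes were tested, and ranged from 13 to 18 when a replicate was left out. Ddr1 turned from 0.74 to -0.068 without probe sets that may match several transcripts, and Itgav from 2.45 to -0.079 with its 2nd brightest probe set. Over all tested genes, 1559 calls became 785 with no filter, 883 at 0.01, 826 with the 2nd brightest probe set and 917 without MP bipolar replicate 2; the cause was not tested.

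With the replicate number as a block, 16 matrix genes were called (replicate block; Col4a2, Lamc1, Lamc3, Sparc and Tnr were added), and 17 receptor and modifier genes. The labels do not say whether equal numbers share a litter. The replicate differences of the groups correlated at -0.04 across 11583 genes, which cannot decide it, because each group gives a single difference per gene. The block was therefore kept as an alternative only. With 2 arrays a group, differences near 1 on the log2 scale, and dim probe sets, are the least certain. The table holds no measure of signal over background.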
